A study of Homo sapiens with 12 samples.

Results

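The genes described here are 55 factors that build ribosomes in the nucleolus or trim and degrade RNA there. They fall into the RNA exosome with 10 genes, the small-subunit processome and pre-40S factors with 20, assembly factors of the large subunit with 13, proteins of small nucleolar ribonucleoproteins (snoRNPs) with 7, and other nucleolar proteins with 5. Each gene was represented by 1 probe set, chosen by its mean over the 12 arrays, the highest among the probe sets annotated to that gene alone. These means chose the probe sets and are a description only. Of the 55 genes, 49 had such a probe set, and all 49 passed the filter on low values, as did 13225 of 19775 genes on the array. The lowest mean over the 12 arrays among the 49 was 6.73 log2, that of RRP9, above the filter at 5.46 log2. BOP1, PPAN, NOP56 and DKC1, whose probe sets carry several gene symbols, and DDX18 and GNL3 were not analysed here.

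The RNA came from MDA-MB-231, a line grown from a triple-negative breast cancer, and was measured on Affymetrix U133 Plus 2.0 arrays, which carry several probe sets for many genes. Cells received siYAP/TAZ mix 1, siYAP/TAZ mix 2 or control siRNA at 33 nM, with 4 biological replicates (A to D) in each of the 3 groups. YAP (gene YAP1) and TAZ (gene WWTR1) are paired coactivators of the TEAD transcription factors, and the series asks what changes in expression when both are lost. In every group cells were seeded sparsely on day 1 in medium with 10% serum, transfected on day 2, given new medium on day 3 and harvested on day 4. All arrays carry RNA from the same line, each mix was aimed at both genes at once, and the groups were handled in parallel. The P-values below therefore measure the spread between parallel cultures of 1 line, and losses of YAP alone and of TAZ alone cannot be told apart.

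Ribosomes begin in the nucleolus, where RNA polymerase I makes a long precursor of ribosomal RNA. The small-subunit processome folds and cuts the part that becomes the 40S subunit, other factors assemble the 60S subunit, snoRNPs guide chemical marks onto the precursor, and the RNA exosome trims and degrades RNA from the 3′ end. Growing cells, cancer cells among them, need a steady supply of these factors, and the transcription factor MYC is known to drive many of their genes.

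For 41 of the 49 measured genes RefSeq (GRCh38.p14) gave the promoter, of which the 250 bases before the annotated start were searched on both strands. The letters searched were CACGTG, the palindromic E-box that MYC and other basic helix-loop-helix factors bind, CCGGAAG, a core of ETS factor sites, and GGAATG, the core recognised by TEAD factors. CACGTG stood in 6 of the 41 promoters (14.6%) and in 934 of 10667 promoters of all tested genes (8.76%). CCGGAAG stood in 10 of the 41 (24.4%) and in 1624 of the 10667 (15.2%), and GGAATG in 7 of the 41 (17.1%) and in 1010 of the 10667 (9.47%). The first 4 promoters below are shown because their CACGTG, in capitals, lies within 100 bases of the start. They belong to UTP20, chr12:101279855-101280104 (+ strand), UTP4, chr16:69132399-69132648 (+ strand), UTP18, chr17:51260296-51260545 (+ strand), and EXOSC5, chr19:41397360-41397609 (- strand), whose changes are given further on.
UTP20: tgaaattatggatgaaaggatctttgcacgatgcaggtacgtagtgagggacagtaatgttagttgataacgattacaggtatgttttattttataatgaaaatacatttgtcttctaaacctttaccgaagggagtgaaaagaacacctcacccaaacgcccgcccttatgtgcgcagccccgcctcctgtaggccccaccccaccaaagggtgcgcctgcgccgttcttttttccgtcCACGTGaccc
UTP4: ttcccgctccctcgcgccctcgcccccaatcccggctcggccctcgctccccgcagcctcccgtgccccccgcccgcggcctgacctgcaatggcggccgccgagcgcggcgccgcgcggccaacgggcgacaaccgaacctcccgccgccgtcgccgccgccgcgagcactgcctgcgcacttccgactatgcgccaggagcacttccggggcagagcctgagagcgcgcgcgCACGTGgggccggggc
UTP18: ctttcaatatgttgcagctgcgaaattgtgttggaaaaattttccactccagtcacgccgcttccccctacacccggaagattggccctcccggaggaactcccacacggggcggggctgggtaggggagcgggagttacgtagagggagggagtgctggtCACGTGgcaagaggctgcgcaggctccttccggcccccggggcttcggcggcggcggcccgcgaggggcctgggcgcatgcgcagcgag
EXOSC5: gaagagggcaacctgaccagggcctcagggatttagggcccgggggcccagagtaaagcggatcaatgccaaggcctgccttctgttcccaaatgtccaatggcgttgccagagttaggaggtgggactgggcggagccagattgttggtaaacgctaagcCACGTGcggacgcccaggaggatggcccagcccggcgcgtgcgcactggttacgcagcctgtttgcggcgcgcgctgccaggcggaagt
The next pair has no CACGTG and is shown with CCGGAAG or its reverse complement CTTCCGG in capitals. NOP16, chr5:176388599-176388848 (- strand), was among the genes that fell most, and there the letters of both strands overlap. UTP3, chr4:70688282-70688531 (+ strand), was the gene that did not fall with mix 2.
NOP16: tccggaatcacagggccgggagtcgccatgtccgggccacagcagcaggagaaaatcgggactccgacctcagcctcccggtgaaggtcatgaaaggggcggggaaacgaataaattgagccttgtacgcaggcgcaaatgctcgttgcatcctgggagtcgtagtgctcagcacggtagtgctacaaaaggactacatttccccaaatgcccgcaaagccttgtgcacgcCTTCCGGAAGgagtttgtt
UTP3: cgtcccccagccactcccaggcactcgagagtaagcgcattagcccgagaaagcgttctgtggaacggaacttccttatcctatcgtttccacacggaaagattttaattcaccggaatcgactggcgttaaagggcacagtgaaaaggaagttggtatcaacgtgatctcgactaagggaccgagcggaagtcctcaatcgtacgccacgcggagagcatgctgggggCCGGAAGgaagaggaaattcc
The CACGTG began 10 bases before the start in UTP20, 16 in UTP4, 89 in UTP18 and 89 in EXOSC5. UTP14A and IMP4 held it at 241 and 203 bases. No promoter of the 7 large-subunit, 3 snoRNP and 5 other nucleolar genes that were matched held these letters. The 6 genes with CACGTG had a median log2 change of -1.47 with mix 1 and -1.66 with mix 2, and the 35 without it had -1.47 and -1.38, in a window that says nothing of sites elsewhere.

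The targeted mRNAs were checked first. YAP1 averaged 8.15 ± 0.36 log2 with mix 1 and 8.09 ± 0.097 with mix 2, against 11.16 ± 0.096 with control siRNA (SD, n = 4), and WWTR1 averaged 9.07 ± 0.22 and 8.95 ± 0.12 against 11.40 ± 0.096. All 6 mesenchymal markers of the line passed the filter, and their summed level lay at 15.49 to 15.57 log2 with mix 1, 15.56 to 15.56 with mix 2 and 15.52 to 15.55 with control siRNA. Single members moved apart, with 3 higher and 3 lower with mix 1 and 1 higher and 3 lower with mix 2. FN1 rose by 1.72 and 1.39 log2, and AXL changed by -1.11 and -0.41. Of 8 luminal epithelial markers, CDH1, FOXA1 and PGR were below the filter value in all 3 groups, and the summed level was at 14.19 to 14.31 log2 with mix 1, 13.89 to 14.13 with mix 2 and 13.64 to 13.73 with control siRNA. Of the 5 that were tested, 2 were higher and 1 lower with mix 1, and 3 were higher with mix 2. KRT19 rose by 1.35 and 0.84, KRT8 rose by 0.51 and 0.40, and EPCAM changed by -0.38 and 0.93. Summed leukocyte markers were at 10.76 to 10.95 log2 with mix 1, 10.89 to 10.98 with mix 2 and 8.89 to 9.05 with control siRNA. Of 5 tested genes, 4 were higher in both mixes. LYZ rose by 4.19 log2 with mix 1 and 4.22 with mix 2, HLA-DRA by 1.93 and 2.315, and CD74 by 1.56 and 1.55. CD14 rose by 1.12 and 1.24, while CD3E was at -0.10 and -0.11. PTPRC, the defining leukocyte gene, was below the filter value in every group, and LYZ and CD14 were below it with control siRNA. Summed fibroblast and endothelial markers were at 10.23 to 10.47, 9.75 to 9.88 and 8.73 to 8.91, with 3 of 4 tested genes higher in both mixes. COL1A1 rose by 2.30 and 1.48 log2, and VWF was at -0.05 and 0.04. Of the other fibroblast genes, PDGFRB averaged 6.565 with mix 1 and 6.78 with mix 2, against 5.90 with control siRNA. DCN averaged 5.38, 5.53 and 5.465 in the same order and COL3A1 4.71, 5.505 and 4.44, and neither passed the filter. Of the endothelial genes, PECAM1 averaged 8.62 with mix 1 and 7.88 with mix 2, against 6.54 with control siRNA. CDH5 and KDR were below the filter value throughout. Among all genes tested, 34.8% were higher and 32.3% lower with mix 1, and 36.7% were higher and 31.9% lower with mix 2. The part of these markers in the results below was not tested. Array medians ranged from 5.69 to 5.78 log2 and replicates of a group correlated at 0.993 to 0.998 across genes. The 3′ minus 5′ signal of ACTB was 1.61 to 2.24 log2 with mix 1, 1.36 to 1.83 with mix 2 and 1.38 to 1.99 with control siRNA.

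With mix 1, the mRNAs of all 49 measured genes fell, from nucleolar helicases to exosome subunits. With mix 2, 48 of the 49 fell, the exception being UTP3. A change counts as past the threshold here when its limma P-value, adjusted by the Benjamini-Hochberg method over all 13225 genes, is under 0.05. At that threshold 32.3% of all genes were lower with mix 1 and 31.9% were lower with mix 2. Higher genes made up 34.8% with mix 1 and 36.7% with mix 2, and 0 of the 49 were among them in either comparison. Since the genes were listed with earlier results of these arrays known, the counts describe the list and do not test it. Falls of at least 2-fold past the threshold were seen in 33 of the 49 with mix 1, where 8.29% of all genes met that rule, and in 35 with mix 2, where 9.35% did.

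The median log2 change of the 49 genes was -1.36 with mix 1 and -1.32 with mix 2, beside medians of 0.01 and 0.03 over all genes tested. Both mixes were set against the same 4 control arrays. All 4 mix 1 arrays lay below all 4 control arrays for 49 genes (31% of all genes tested), and all 4 mix 2 arrays did so for 47 (31% of all genes). For those 47 genes all 8 knockdown arrays were below all 4 control arrays (23.1% of all genes). The 2 genes outside that count were UTP3, whose mix 2 arrays were above the controls, and EXOSC1, whose mix 2 arrays overlapped them. In RNA from whole cultures, fewer cells that make an mRNA and less of it per cell cannot be told apart, and the authors' normalisation would hide a shift common to all genes.

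**Figure D1:**
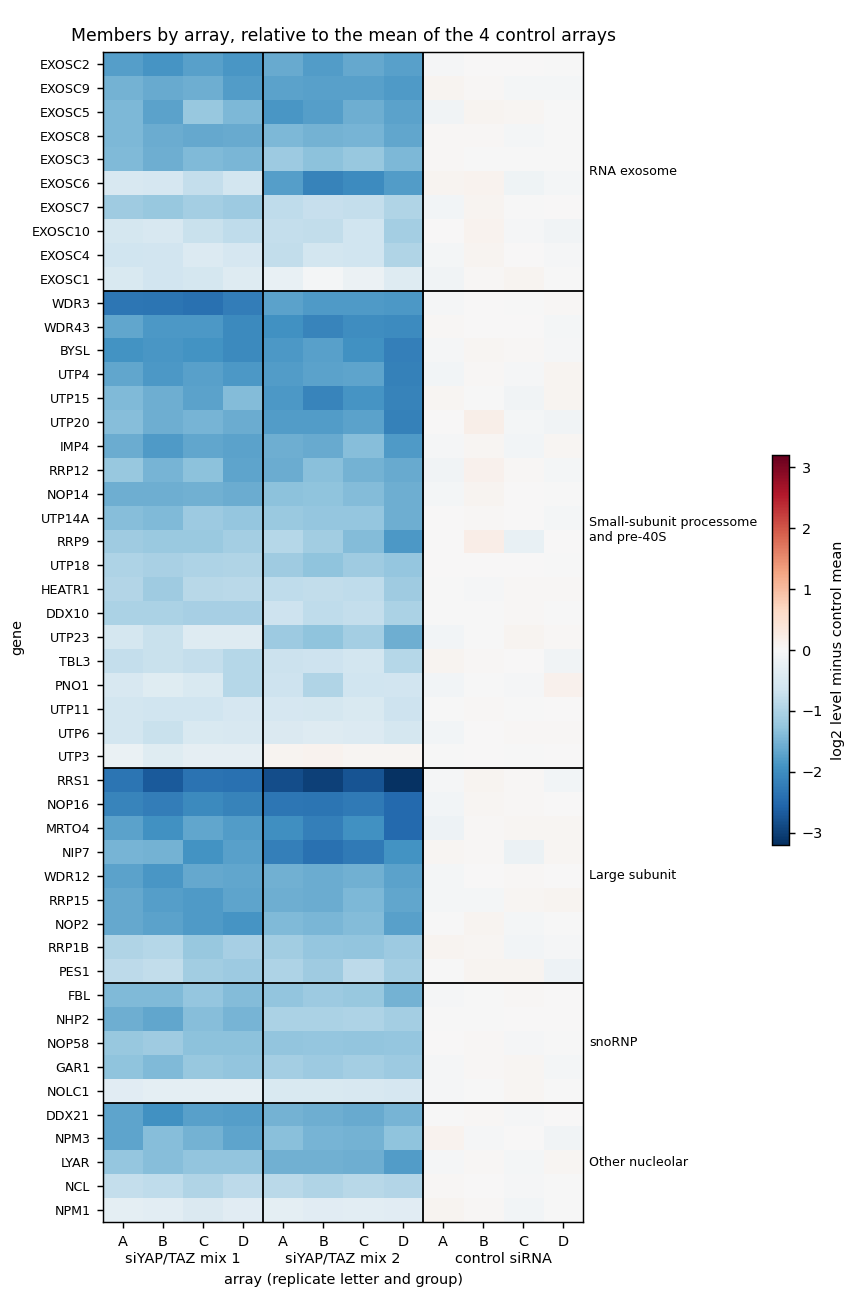
Log2 level of each of the 49 genes (vertical axis, grouped by role) on each of the 12 arrays (horizontal axis, mix 1, mix 2 and control siRNA, replicates A to D), minus the mean of the 4 control arrays. Blue is lower and red is higher. Every gene is blue on the 4 mix 1 arrays, UTP3 alone is faintly red on the 4 mix 2 arrays, and the control arrays stay within -0.23 and 0.21 of their mean.

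Array by array the picture was even. On mix 1 arrays A to D the median of the 49 differences from the control mean was -1.35, -1.41, -1.27 and -1.38 log2, and all 49 genes were below that mean on each. On mix 2 arrays it was -1.27, -1.30, -1.36 and -1.56, with 48 genes below it on each. Control arrays stayed between -0.03 and 0.03. Replicate D of mix 2 was the lowest of the 8 knockdown arrays. Without it the median change with mix 2 was -1.26 and 48 genes were still past the threshold. The spread of a gene between replicates had a median SD of 0.093 log2 with mix 1, 0.118 with mix 2 and 0.063 with control siRNA.

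All 10 genes of the RNA exosome fell with each mix, by medians of -1.30 log2 with mix 1 and -1.40 with mix 2. The exosome is a barrel of 9 subunits, with EXOSC4 to EXOSC9 forming a ring and EXOSC1, EXOSC2 and EXOSC3 a cap through which RNA enters, and EXOSC10 is a nuclease attached to it in the nucleus. EXOSC2 (probe set 209527_at), a cap subunit, had log2 levels on arrays A to D of 8.01, 7.89, 8.04 and 7.91 with mix 1 and 8.15, 7.98, 8.13 and 8.04 with mix 2, against 9.74, 9.78, 9.79 and 9.76 with control siRNA. On this probe set the 8 knockdown arrays lay well below every control array, and the mixes overlapped each other. Its log2 change was -1.81 ± 0.057 (± SE of the limma fit) with mix 1 and -1.69 ± 0.057 with mix 2, or 3.49-fold and 3.23-fold lower, with adjusted p of 2.36e-12 and 2.84e-12. A second EXOSC2 probe set (214507_s_at) gave -1.87 and -1.36. There mix 2 was higher than mix 1 by 0.51, past the threshold (limma adjusted p = 2.08e-04). EXOSC9, a ring subunit first found as an autoantigen, had 9.38, 9.28, 9.32 and 9.10 with mix 1 and 9.18, 9.15, 9.14 and 9.08 with mix 2, against 10.98, 10.92, 10.83 and 10.83 with control siRNA. Its mixes also lay clear of the controls and overlapped each other. The changes of EXOSC9 were -1.62 ± 0.066 with mix 1 and -1.75 ± 0.066 with mix 2 (adjusted p = 2.33e-11 and 8.26e-12).

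EXOSC5, a ring subunit whose promoter with CACGTG is printed above, changed by -1.45 ± 0.093 log2 with mix 1 and -1.73 ± 0.093 with mix 2. EXOSC8, another ring subunit, changed by -1.58 ± 0.063 and -1.53 ± 0.063, and the cap subunit EXOSC3 by -1.47 ± 0.062 and -1.28 ± 0.062. All of these were past the threshold. By the mean of both changes, the smallest falls in the complex were those of EXOSC4 and EXOSC1. EXOSC4, the ring partner of EXOSC9, had 9.21, 9.23, 9.41 and 9.30 with mix 1 and 9.06, 9.25, 9.21 and 8.88 with mix 2, against 9.79, 9.93, 9.86 and 9.81 with control siRNA. The 8 knockdown arrays stayed under the controls, with changes of -0.56 ± 0.080 with mix 1 and -0.75 ± 0.080 with mix 2 (adjusted p = 1.77e-05 and 7.99e-07). The cap subunit EXOSC1 was at 10.34, 10.23, 10.28 and 10.41 with mix 1 and 10.60, 10.77, 10.65 and 10.43 with mix 2, against 10.73, 10.86, 10.91 and 10.83 with control siRNA. Its mix 1 arrays were all below the controls, whereas mix 2 array B stood above control array A. EXOSC1 changed by -0.52 ± 0.073 with mix 1 (adjusted p = 1.75e-05) and by -0.22 ± 0.073 with mix 2 (adjusted p = 0.0155). Of the 3 EXOSC1 probe sets, only this one passed the filter on low values. Averaged with the others, which lay below the filter, EXOSC1 was at -0.13 with mix 1 (adjusted p = 0.063) and -0.04 with mix 2 (adjusted p = 0.574), neither past the threshold. EXOSC10, the nuclear nuclease, changed by -0.65 ± 0.095 and -0.83 ± 0.095, both past the threshold.

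All 20 small-subunit genes fell with mix 1 and 19 fell with mix 2, by medians over the 20 of -1.22 and -1.31 log2. WDR3 (probe set 218882_s_at), a WD-repeat protein of the UTP-B complex that binds the precursor early, had 8.92, 8.90, 8.86 and 9.02 with mix 1 and 9.53, 9.42, 9.42 and 9.39 with mix 2, against 11.20, 11.25, 11.22 and 11.29 with control siRNA. Mix 1 was lowest, mix 2 in between and control highest, with no overlap. WDR3 was 4.98-fold lower with mix 1 (-2.32 ± 0.055 log2, adjusted p = 1.76e-13) and 3.48-fold lower with mix 2 (-1.80 ± 0.055 log2, adjusted p = 1.09e-12). WDR43, a subunit of the UTP-A complex that links precursor transcription to its processing, was at 8.44, 8.26, 8.27 and 8.06 with mix 1 and 8.16, 8.0, 8.11 and 8.08 with mix 2, against 10.13, 10.12, 10.12 and 10.04 with control siRNA. Here the mixes overlapped each other and not the controls. Its changes were -1.85 ± 0.072 and -2.02 ± 0.072 (adjusted p = 1.81e-11 and 5.40e-12).

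Further UTP-A subunits fell too. UTP4, known as cirhin, changed by -1.77 ± 0.091 with mix 1 and -1.84 ± 0.091 with mix 2, and UTP15 by -1.52 ± 0.089 and -2.0 ± 0.089. HEATR1, the human counterpart of yeast Utp10, changed by -0.96 ± 0.081 and -0.89 ± 0.081. Of the UTP-B subunits besides WDR3, UTP18 changed by -1.0 ± 0.053 and -1.21 ± 0.053 and TBL3 by -0.79 ± 0.078 and -0.72 ± 0.078. UTP6, also of UTP-B, was at 10.56, 10.43, 10.66 and 10.63 with mix 1 and 10.68, 10.72, 10.70 and 10.59 with mix 2, against 11.05, 11.15, 11.19 and 11.17 with control siRNA. All 8 knockdown arrays were below the controls, and the changes of -0.57 ± 0.062 and -0.47 ± 0.062 (adjusted p = 1.11e-06 and 8.44e-06) were among the smallest of the class. TBL3 had a second probe set past the filter, at 0.12 with mix 1 and -0.17 with mix 2, neither past the threshold.

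UTP3 departed from its class. It encodes a protein of the processome, the counterpart of yeast Sas10, and had 10.52, 10.35, 10.44 and 10.45 with mix 1 and 10.82, 10.85, 10.80 and 10.79 with mix 2, against 10.72, 10.75, 10.72 and 10.73 with control siRNA. With mix 1 every array was below every control array, and with mix 2 every array was above them by a narrow margin. The change was -0.29 ± 0.051 with mix 1 (adjusted p = 1.30e-04) and 0.09 ± 0.051 with mix 2 (adjusted p = 0.154), the second not past the threshold. UTP3 was the only one of the 49 without a fall past the threshold with mix 2.

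The remaining small-subunit genes fell past the threshold with both mixes. BYSL, or bystin, which stays on the pre-40S particle until it reaches the cytoplasm, changed by -1.93 ± 0.084 with mix 1 and -1.92 ± 0.084 with mix 2. UTP20, a very large scaffold protein whose CACGTG lies nearest to its start, changed by -1.50 ± 0.096 and -1.86 ± 0.096, and IMP4, which works beside the U3 snoRNP, by -1.70 ± 0.085 and -1.59 ± 0.085. RRP9, a core protein of the U3 snoRNP, changed by -1.15 ± 0.15 and -1.32 ± 0.15, with the widest spread between replicates of all 49 genes under mix 2 (SD 0.398). NOP14, RRP12, UTP14A, DDX10 and UTP11 changed by between -1.56 and -0.61 with mix 1 and between -1.51 and -0.57 with mix 2. A second RRP12 probe set gave -0.29 with mix 1, not past the threshold (adjusted p = 0.0794), and -0.37 with mix 2. PNO1, a KH-domain protein of the pre-40S particle, changed by -0.58 ± 0.11 and -0.72 ± 0.11 on its brightest probe set, whose name ends in _x_at and which can bind related transcripts. The other probe sets of PNO1 fell by more, with -1.81 and -2.42 for mix 1 and -1.88 and -1.63 for mix 2.

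The 9 measured large-subunit genes all fell with each mix and had the lowest class medians, -1.73 with mix 1 and -1.60 with mix 2. RRS1 (probe set 209567_at), which helps to bring the 5S RNA with its proteins into the pre-60S particle, had 8.81, 8.46, 8.78 and 8.77 with mix 1 and 8.32, 8.15, 8.38 and 8.0 with mix 2, against 11.11, 11.23, 11.19 and 11.07 with control siRNA. The mix 2 arrays were lowest, the mix 1 arrays stood above them, and the controls were far above both. RRS1 was 5.45-fold lower with mix 1 (-2.45 ± 0.093 log2, adjusted p = 1.40e-11) and 7.66-fold lower with mix 2 (-2.94 ± 0.093 log2, adjusted p = 1.57e-12), the largest fall among the 49 genes. NOP16, a nucleolar pre-60S protein, was at 9.56, 9.47, 9.63 and 9.55 with mix 1 and 9.36, 9.33, 9.41 and 9.20 with mix 2, against 11.58, 11.75, 11.71 and 11.68 with control siRNA. All 8 knockdown arrays were again far below the controls, at 4.37-fold and 5.12-fold lower, with changes of -2.13 ± 0.062 and -2.36 ± 0.062 (adjusted p = 1.06e-12 and 2.83e-13). A second probe set of NOP16 gave -2.34 and -2.68, while 2 further ones (209327_s_at and 213833_x_at) gave 0.06 and 0.04 with mix 1 and 0.05 and 0.21 with mix 2, the last past the threshold as higher (adjusted p = 0.0284).

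MRTO4, which holds the place of the P0 stalk protein during assembly, changed by -1.78 ± 0.11 with mix 1 and -2.15 ± 0.11 with mix 2. NOP2, a methyltransferase of the large ribosomal RNA, changed by -1.77 ± 0.081 and -1.51 ± 0.081, and RRP15 by -1.73 ± 0.066 and -1.56 ± 0.066. Of the PeBoW complex, which joins PES1, BOP1 and WDR12, WDR12 changed by -1.73 ± 0.063 and -1.60 ± 0.063. PES1, the pescadillo protein, had 7.85, 7.89, 7.57 and 7.52 with mix 1 and 7.69, 7.55, 7.83 and 7.60 with mix 2, against 8.67, 8.77, 8.76 and 8.52 with control siRNA. The knockdown arrays were below the controls and the mixes overlapped, with changes of -0.97 ± 0.095 and -1.01 ± 0.095 (adjusted p = 3.27e-07 and 1.94e-07). RRP1B, a nucleolar protein that also binds chromatin, was at 10.39, 10.45, 10.14 and 10.29 with mix 1 and 10.24, 10.10, 10.09 and 10.20 with mix 2, against 11.43, 11.41, 11.26 and 11.30 with control siRNA. Those groups were placed alike, and RRP1B changed by -1.03 ± 0.073 and -1.19 ± 0.073 (adjusted p = 9.16e-09 and 1.63e-09). These last genes had the smallest falls of the class. A second RRP1B probe set gave -0.27 and -0.32.

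**Figure D2:**
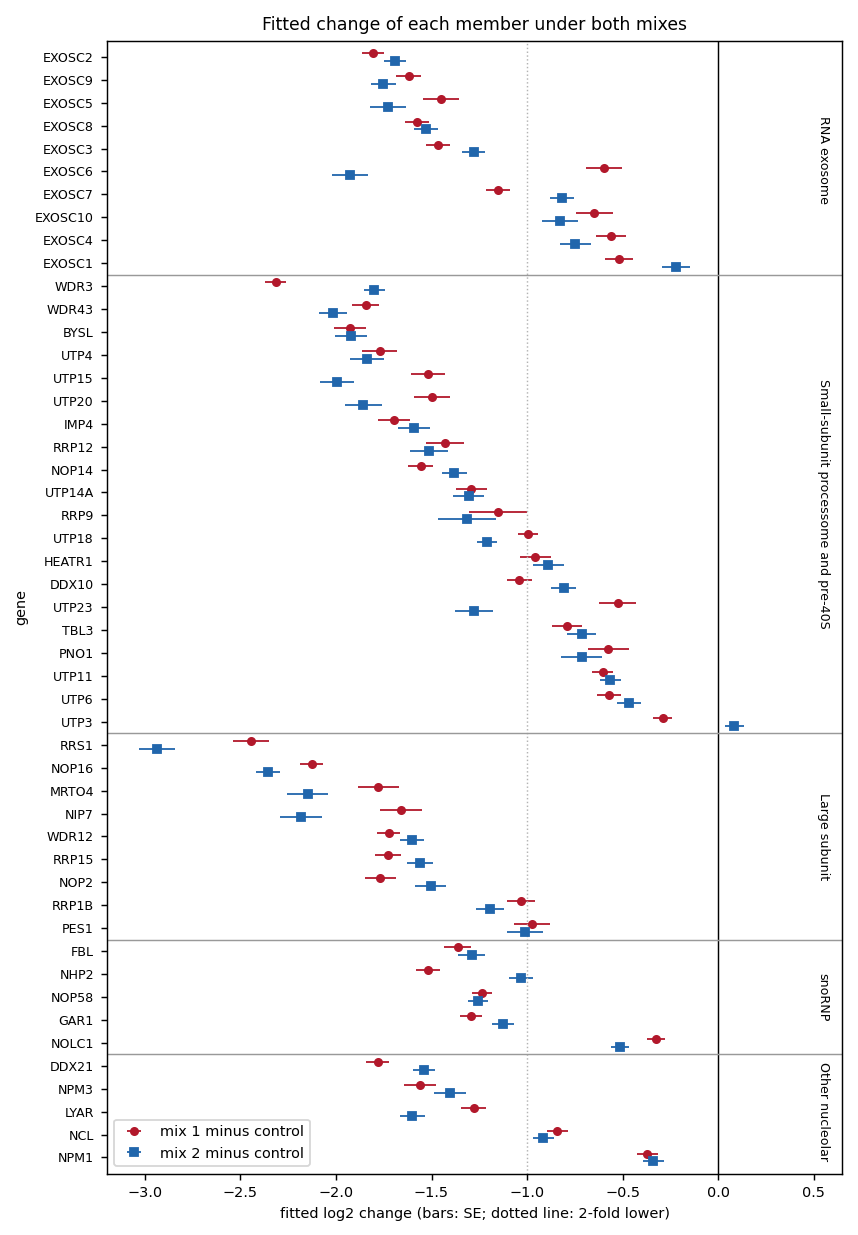
Fitted log2 change of each of the 49 genes (vertical axis, grouped by role and ordered by the mean of both changes), mix 1 minus control as red circles and mix 2 minus control as blue squares, with SE bars (n = 4 arrays per group). All circles lie left of 0, the mix 2 square of UTP3 lies right of it at 0.09, and RRS1 lies farthest left at -2.45 and -2.94.

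The 5 measured snoRNP proteins fell with both mixes, with medians of -1.30 for mix 1 and -1.13 for mix 2. FBL, or fibrillarin, the methyltransferase of box C/D snoRNPs, had 11.11, 11.12, 11.28 and 11.14 with mix 1 and 11.26, 11.36, 11.30 and 11.02 with mix 2, against 12.49, 12.52, 12.56 and 12.53 with control siRNA. The mixes overlapped each other and were clear of the controls, with changes of -1.36 ± 0.072 and -1.29 ± 0.072 (adjusted p = 3.77e-10 and 5.73e-10). NOP58, a core protein of the same particles, changed by -1.24 ± 0.053 and -1.26 ± 0.053. GAR1 and NHP2 belong to the box H/ACA particles, which make pseudouridine and also include telomerase. GAR1 was at 9.89, 9.76, 9.95 and 9.90 with mix 1 and 10.07, 10.02, 10.09 and 10.00 with mix 2, against 11.14, 11.21, 11.23 and 11.10 with control siRNA. Its mix 2 arrays lay above its mix 1 arrays, and both were below the controls, by -1.30 ± 0.057 and -1.13 ± 0.057 (adjusted p = 5.58e-11 and 2.05e-10). NOLC1, a phosphoprotein that shuttles snoRNPs into the nucleolus, had 11.41, 11.45, 11.46 and 11.47 with mix 1 and 11.28, 11.28, 11.25 and 11.23 with mix 2, against 11.73, 11.75, 11.84 and 11.77 with control siRNA. The differences were small but no array crossed into another group, and the changes were -0.33 ± 0.048 and -0.51 ± 0.048 (adjusted p = 2.75e-05 and 2.09e-07). The dimmer NOLC1 probe sets gave -0.87 and -0.84 with mix 1 and -0.70 and -0.61 with mix 2.

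All 5 other nucleolar genes fell with both mixes, with medians of -1.28 and -1.40. DDX21, an RNA helicase active in both precursor transcription and processing, had 10.98, 10.75, 10.94 and 10.92 with mix 1 and 11.17, 11.12, 11.07 and 11.20 with mix 2, against 12.67, 12.71, 12.65 and 12.69 with control siRNA. Mix 1 was lowest and mix 2 next, without overlap, at 3.44-fold and 2.91-fold below control (-1.78 ± 0.059 and -1.54 ± 0.059 log2, adjusted p = 3.71e-12 and 1.07e-11). NPM3, a relative of nucleophosmin, was at 7.74, 8.06, 7.92 and 7.73 with mix 1 and 8.10, 7.93, 7.92 and 8.14 with mix 2, against 9.54, 9.40, 9.44 and 9.32 with control siRNA. Both mixes lay below the controls and overlapped, with changes of -1.56 ± 0.084 and -1.40 ± 0.084 (adjusted p = 4.48e-10 and 1.25e-09). LYAR, a zinc-finger protein of growing cells, changed by -1.28 ± 0.064 and -1.60 ± 0.064.

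Among these other nucleolar genes, the mRNAs of NCL and NPM1 fell least. NCL, or nucleolin, had 11.87, 11.83, 11.68 and 11.79 with mix 1 and 11.77, 11.67, 11.74 and 11.70 with mix 2, against 12.67, 12.65, 12.60 and 12.62 with control siRNA. NPM1, or nucleophosmin, a histone chaperone and ribosome export factor, had 13.80, 13.77, 13.65 and 13.75 with mix 1 and 13.81, 13.75, 13.77 and 13.76 with mix 2, against 14.20, 14.14, 14.02 and 14.09 with control siRNA. For both genes every knockdown array was below every control array. NCL changed by -0.84 ± 0.055 and -0.92 ± 0.055 (adjusted p = 3.65e-09 and 1.28e-09), and NPM1 by -0.37 ± 0.056 and -0.34 ± 0.056 (adjusted p = 3.17e-05 and 6.80e-05). The other NPM1 probe sets gave -0.75 and -0.61 with mix 1 and -0.57 and -0.50 with mix 2.

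The other probe sets of these genes that passed the filter were tested in a separate fit over probe sets, and those below it were left out. Of 34 other probe sets past the filter, which belonged to 22 of the genes, 30 were lower and 0 higher with mix 1, and 31 were lower and 1 higher with mix 2. The share of all probe sets called in that fit was not counted. In the fit over genes, 32.3% of all genes were lower with mix 1 and 31.9% with mix 2. The 1 higher probe set was the NOP16 one given above.

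The mixes differed from each other for some of these genes and in both directions. Mix 2 was lower than mix 1 for 12 of the 49 and higher for 12, while 25 were not past the threshold, and over all genes 25% were lower and 28.7% higher. The median of the 49 differences was -0.01 log2, mix 2 minus mix 1. Of the 25 genes not past the threshold, none had a 95% interval of the difference that reached below -0.49 or above 0.34. The groups of the 2 mixes did not overlap for 17 of the 49 genes, against 46.1% of all genes, and 4 of the 49 differed by at least 0.5 log2 past the threshold, against 22.7% of all genes.

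**Figure D3:**
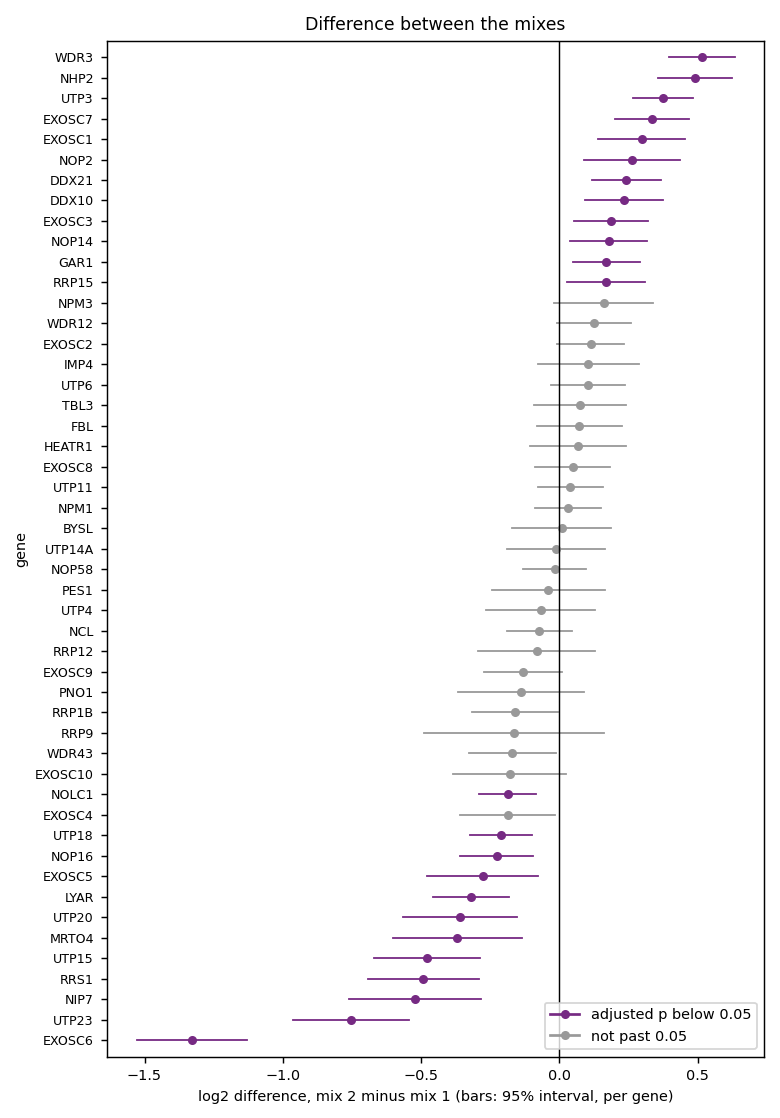
Log2 difference, mix 2 minus mix 1, for each of the 49 genes (vertical axis, ordered by size) with 95% intervals per gene. Purple points are past the adjusted threshold and grey points are not. EXOSC6 stands alone at -1.33, UTP23 follows at -0.75, and WDR3 is highest at 0.52.

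EXOSC6, a ring subunit, differed most. Its levels were 7.81, 7.42, 7.55 and 7.77 with mix 2, against 9.06, 9.02, 8.81 and 8.98 with mix 1, and control arrays had 9.65, 9.68, 9.42 and 9.51. Mix 1 was a little below control and mix 2 far below both. The difference of -1.33 ± 0.093 (adjusted p = 2.34e-08) came from changes of -0.60 ± 0.093 with mix 1 and -1.93 ± 0.093 with mix 2. A second EXOSC6 probe set (1558044_s_at) gave -0.59 and -1.50, and one more (1553947_at) gave -0.34 and -0.36 with a difference of -0.02 that was not past the threshold (adjusted p = 0.887). The mixes therefore differed on 2 of its 3 probe sets.

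UTP23, the counterpart of a yeast protein that releases a snoRNA from the precursor, had 8.76, 8.65, 8.83 and 8.37 with mix 2, against 9.37, 9.21, 9.51 and 9.53 with mix 1, and control arrays had 9.83, 9.91, 10.02 and 9.96. The order was the same as for EXOSC6, with no overlap. The difference was -0.75 ± 0.097 (adjusted p = 1.30e-05), and the other UTP23 probe sets gave -1.37 and -0.85. From control, UTP23 changed by -0.53 ± 0.097 with mix 1 and -1.28 ± 0.097 with mix 2. NIP7, a pre-60S factor, had 8.38, 8.18, 8.30 and 8.66 with mix 2, against 9.07, 9.05, 8.66 and 8.83 with mix 1, and control arrays had 10.63, 10.61, 10.38 and 10.63. Mix 2 array D was level with mix 1 array C, and the difference was -0.52 ± 0.11 (adjusted p = 0.00104), with changes from control of -1.66 ± 0.11 and -2.18 ± 0.11. RRS1, with the levels given above, differed by -0.49 ± 0.093 (adjusted p = 4.14e-04) and UTP15 by -0.48 ± 0.089 (adjusted p = 3.65e-04).

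WDR3 was the gene with the largest opposite difference, 0.52 ± 0.055 (adjusted p = 1.88e-06). NHP2 had 11.75, 11.75, 11.76 and 11.66 with mix 2, against 11.19, 11.11, 11.40 and 11.26 with mix 1, and control arrays had 12.74, 12.74, 12.78 and 12.78. Its mix 2 arrays all lay between mix 1 and control, a difference of 0.49 ± 0.062 (adjusted p = 1.08e-05), and its changes from control were -1.52 ± 0.062 with mix 1 and -1.03 ± 0.062 with mix 2. UTP3 differed by 0.38 ± 0.051 (adjusted p = 1.95e-05). EXOSC7, a ring subunit, had 9.94, 10.00, 9.98 and 9.78 with mix 2, against 9.60, 9.52, 9.66 and 9.58 with mix 1, and control arrays had 10.66, 10.82, 10.74 and 10.75. There too mix 2 lay between mix 1 and control, and the difference was 0.34 ± 0.062 (adjusted p = 3.48e-04). From control, EXOSC7 changed by -1.15 ± 0.062 with mix 1 and -0.82 ± 0.062 with mix 2.

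**Figure D4:**
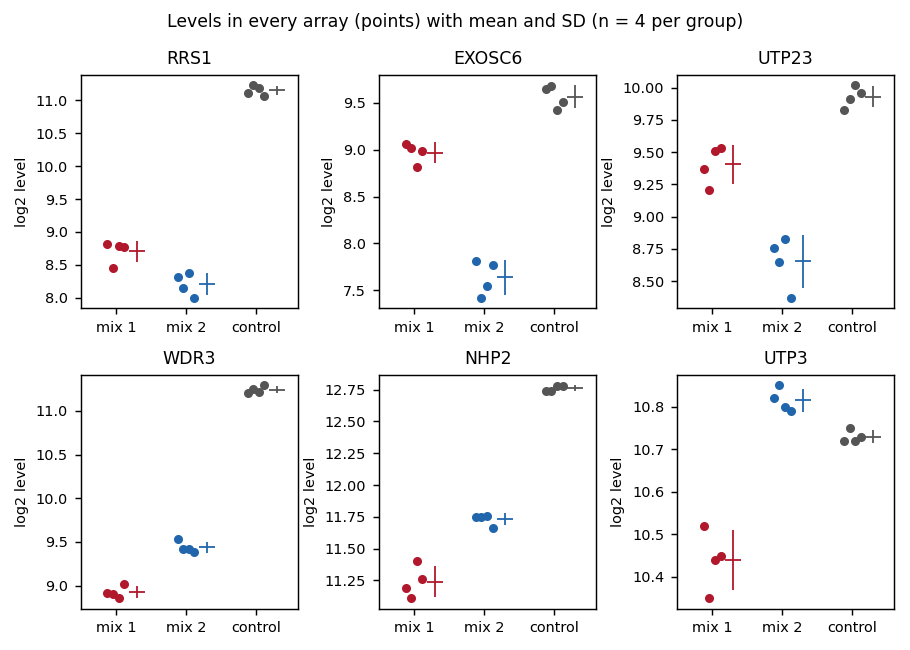
Log2 levels of 6 genes (vertical axes, which differ in range and do not start at 0) on each array, with the mean and SD of mix 1, mix 2 and control siRNA (n = 4 each). Mix 2 is the lowest group for RRS1, EXOSC6 and UTP23, mix 1 is the lowest for WDR3, NHP2 and UTP3, and only for UTP3 does a mix lie above control.

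For some genes the direction between the mixes depended on the probe set. RRP15 differed by 0.17 ± 0.066 on its brightest probe set (adjusted p = 0.0441) and by -1.35 on the other. The first of these was not past the threshold with the replicate letter as a block (adjusted p = 0.0549), nor in 9 of the 12 fits that left out 1 array (adjusted p 0.0188 to 0.139 over the 12). WDR12 differed by 0.13 ± 0.063 on its brightest probe set, not past the threshold, and by -0.84 on the other. PNO1 differed by -0.14 ± 0.11 on its brightest probe set, not past the threshold, and by -0.07 and 0.79 on the others. NOLC1 differed by -0.19 ± 0.048 on its brightest probe set (adjusted p = 0.004325). On its others it differed by 0.17 and 0.235, neither past the threshold. TBL3 differed by 0.075 ± 0.078 on its brightest probe set, not past the threshold, and by -0.28 on the other. Which transcripts each probe set reads was not tested.

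Other genes of the same pathways were lower in most cases as well. Together 107 of 111 listed genes that are not among the 55 were tested, and 92 fell and 3 rose with mix 1, while 96 fell and 2 rose with mix 2. Over all genes tested, 32.3% were lower and 34.8% higher with mix 1, and 31.9% were lower and 36.7% higher with mix 2. Their medians were -0.74 and -0.87, beside -1.36 and -1.32 for the 49. Since these lists too were drawn up with earlier results of these arrays known, the counts and medians describe the lists and test nothing. Of 32 other small-subunit genes, 29 fell with mix 1 and 31 with mix 2, with medians of -0.99 and -0.92. TSR1, which caps the pre-40S particle, changed by -2.0 ± 0.082 and -1.99 ± 0.082, and EMG1, a methyltransferase of the small ribosomal RNA, by -1.63 ± 0.075 and -1.28 ± 0.075. RCL1, at 0.12 ± 0.088 and -0.18 ± 0.088, was not past the threshold with either mix. FCF1 was at -0.085 ± 0.13 with mix 1, not past the threshold, and fell by -0.425 ± 0.13 with mix 2. Of 41 other large-subunit genes, 38 fell with each mix, with medians of -0.80 and -1.0. PAK1IP1 changed by -2.13 ± 0.085 and -2.54 ± 0.085 and NLE1 by -2.05 ± 0.090 and -2.13 ± 0.090. EFL1, a GTPase that acts on 60S subunits in the cytoplasm, was at 0.15 ± 0.065 with mix 1 (adjusted p = 0.0552) and rose by 0.31 ± 0.065 with mix 2 (adjusted p = 7.11e-04). ZNF622, at 0.16 ± 0.085 and 0.01 ± 0.085, was past the threshold with neither mix.

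Of 13 other snoRNP genes, 12 fell with mix 1 and 10 with mix 2, with medians of -0.85 and -0.61. The share of lower genes among all tested was 32.3% with mix 1 and 31.9% with mix 2. NUFIP1, which helps to assemble box C/D particles, changed by -1.59 ± 0.080 and -1.93 ± 0.080, and NAF1, an assembly factor of box H/ACA particles, by -1.48 ± 0.22 and -1.49 ± 0.22. NOP10, a small H/ACA core protein, fell by 0.28 with mix 1 and was at 0.10 with mix 2 (adjusted p = 0.192). ZNHIT3, at -0.02 ± 0.059 and 0.025 ± 0.059, was past the threshold with neither mix. All 7 factors of RNA polymerase I transcription fell with mix 2, while 6 fell and 1 rose with mix 1, with medians of -0.45 and -0.54. TAF1A, a subunit of the selectivity factor, changed by -1.76 ± 0.077 and -1.32 ± 0.077. UBTF, which coats ribosomal RNA genes, rose with mix 1 (0.64 ± 0.075) and fell with mix 2 (-0.54 ± 0.075), a difference between the mixes of -1.18 ± 0.075 (adjusted p = 9.42e-09).

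The exosome's nucleases outside the 10 core genes and its cofactors were mixed. Of 14 tested, 7 fell and 1 rose with mix 1, and 10 fell and 1 rose with mix 2, with medians of -0.15 and -0.41. Among all genes tested, 32.3% fell and 34.8% rose with mix 1, and 31.9% fell and 36.7% rose with mix 2. DIS3, the main catalytic nuclease of the nuclear exosome, changed by -0.51 ± 0.061 and -0.19 ± 0.061, and DIS3L, its cytoplasmic relative, by -1.26 ± 0.070 and -0.87 ± 0.070. DIS3 was picked for its role after its values were seen. C1D, a partner of EXOSC10, had 8.91, 8.74, 8.92 and 8.92 with mix 2, against 10.86, 10.76, 10.52 and 10.44 with mix 1, and control arrays had 10.72, 10.58, 10.37 and 10.42. Its mix 1 and control arrays overlapped and its mix 2 arrays were far lower, with changes of 0.12 ± 0.099 with mix 1 (adjusted p = 0.295) and -1.65 ± 0.099 with mix 2 (adjusted p = 1.36e-09). SKIC3, of the cytoplasmic Ski complex, was at 0.06 ± 0.19 and 0.40 ± 0.19, not past the threshold with either mix. SKIC2 was at 0.05 ± 0.070 with mix 1, not past the threshold, and rose by 0.22 ± 0.070 with mix 2 (adjusted p = 0.0113).

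The ribosomal proteins themselves, the parts that these factors assemble, had medians nearer 0. Of 52 tested among 78 listed, 39 fell and 1 rose with mix 1, and 31 fell and 1 rose with mix 2. Beside these counts, 32.3% of all genes fell with mix 1 and 31.9% with mix 2. The medians were -0.23 and -0.16. None of these genes fell 2-fold with either mix, where 8.29% of all genes did with mix 1 and 9.35% with mix 2. RPL36 changed by -0.63 ± 0.059 and -0.54 ± 0.059 and FAU by -0.61 ± 0.062 and -0.40 ± 0.062. RPLP1, of the ribosomal stalk, was at 0.05 ± 0.045 and 0.08 ± 0.045, not past the threshold. The highest change with each mix was that of RPL36A, 0.27 with mix 1 and 0.11 with mix 2. Levels differed widely, with control means of 14.045 log2 for RPLP1, 13.29 for FAU and 6.17 for RPLP2. The part of a gene's level on the array in the size of its change was not tested.

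**Figure D5:**
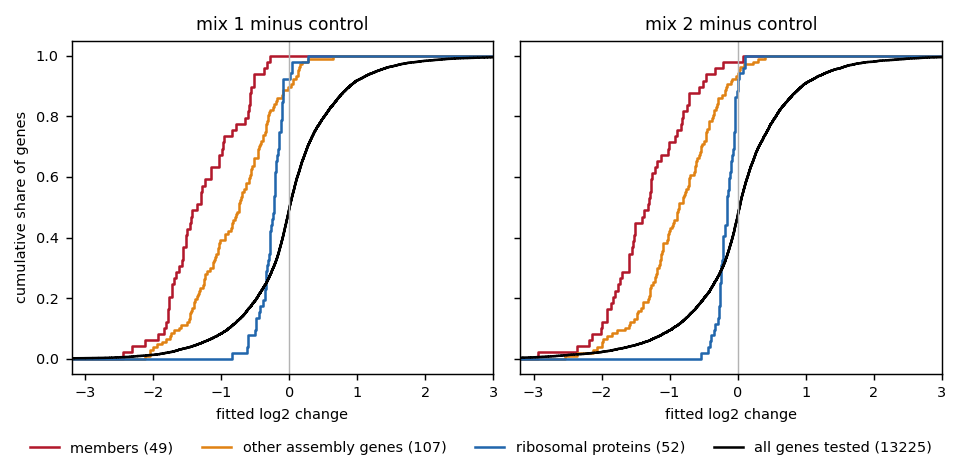
Cumulative share of genes (vertical axis) by fitted log2 change (horizontal axis) for mix 1 minus control (left) and mix 2 minus control (right). The curve of the 49 genes (red) lies farthest to the left with medians of -1.36 and -1.32, and by their medians the other assembly genes (orange), the ribosomal proteins (blue) and all genes tested (black) follow. The lists were drawn up with earlier results of these arrays known.

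Other levels moved along with these genes. MYC had 9.97, 9.75, 10.02 and 10.02 with mix 1 and 10.31, 10.30, 10.40 and 10.10 with mix 2, against 11.13, 11.24, 11.28 and 11.20 with control siRNA. It was lower with both mixes and lowest with mix 1, by -1.27 ± 0.077 and -0.94 ± 0.077 (adjusted p = 1.75e-09 and 4.82e-08), with a difference between the mixes of 0.34 ± 0.077 (adjusted p = 0.00186). All 6 markers of cell division also fell with both mixes, where 32.3% and 31.9% of all genes did. The medians of these markers were -1.95 and -2.46, and MKI67 changed by -2.66 ± 0.10 and -2.94 ± 0.10. Their summed level was at 13.07 to 13.22 log2 with mix 1, 12.56 to 12.76 with mix 2 and 14.82 to 14.88 with control siRNA. The part of MYC and of cell division in the falls of the ribosome biogenesis genes was not tested.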

How the data were processed

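The deposited table held log2 values of the 12 arrays. Per the submitters' processing notes the authors used RMA; no version or option of it is given in the sources used here. RMA usually gives all arrays 1 distribution, so a shift common to all genes would not be seen. Of 54675 probe sets, 41097 had 1 gene symbol in the platform annotation, 1801 had several and 11777 had no gene listed here. For 41043 of the probe sets with 1 symbol the gene ID was found in the RefSeq table of GRCh38.p14, and the symbol given there was used, whether or not it differed. Probe sets with 1 symbol, without 62 control probe sets, were used; each gene took the probe set with the highest mean over the 12 arrays, if that mean was above the 40th percentile (5.46 log2).

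Groups and replicate letters came from the labels. Differences between the 3 group means were tested with limma (version 3.58.1, R 4.3.3) on all 12 arrays with 9 residual degrees of freedom, two-sided, adjusted by the Benjamini-Hochberg method over 13225 genes at 0.05. The fit was tested on simulated data. The number of arrays limits the precision; there is no read depth. Errors of log2 changes are SE.

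The genes and the lists were chosen with earlier results of these data known. The genes named with full statistics were, in each class, those with the 2 lowest and 2 highest means of both changes, then those with the 4 lowest and 4 highest differences between the mixes, and those not past the threshold. In the other lists the 2 lowest and 2 highest genes were picked by the same means, but not all of them are named. The remaining genes of the 55, and some of the lists, were described by role after their values were seen. Same-letter arrays of mix 1 and control correlated in their deviations at 0.370, 0.251, 0.409 and 0.340. Different-letter arrays correlated at -0.428 to 0.374. Among these, mix 1 B with control A was at 0.374, mix 1 D with control C at 0.286 and mix 1 A with control B at 0.232. The correlations therefore cannot settle whether the letters pair these arrays, and no label states it. Between mix 2 and control the same-letter correlations were 0.119, 0.034, 0.048 and 0.212, and those of different letters ran from -0.311 to 0.234. The fit has no block for the letter. Alternatives were a fit with that block, the filter, the choice of probe set, centring, the arrays fitted and leaving out each array. Promoter sequences are from RefSeq, for 41 of 49 genes.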

Additional observations from a re-analysis of the deposited data

Results flagged for a closer look

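Among 147 groups of 4 arrays (49 genes in 3 groups), 9 held an array far from the other 3 by Dixon's 95% criterion, and chance alone gives about 1 in 20 groups. With mix 2, replicate D stood low for UTP14A at 8.03 log2 (others 8.34 to 8.40), for HEATR1 at 9.28 (9.59 to 9.62), for NHP2 at 11.66 (11.75 to 11.76) and for LYAR at 10.17 (10.39 to 10.42), so that 4 of the 9 were this array. Replicate B of mix 2 was low for PNO1 at 9.31 (9.61 to 9.66). With mix 1, replicate B was low for RRS1 at 8.46 (8.77 to 8.81). Among control arrays, D was low for WDR43 at 10.04 (10.12 to 10.13), A for MRTO4 at 10.50 (10.69 to 10.72) and C for NIP7 at 10.38 (10.61 to 10.63). Leaving out each array in turn changed no call of these genes against control.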

How the results depend on the processing

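Against control, 913 results of the 49 genes under the alternatives kept their direction and their side of the threshold with each mix, and 2 with each mix did not: EXOSC1 as the mean of all probe sets with both, and TBL3 without shared probe sets with both. The counts of lower genes stayed at 49 for mix 1 and 48 for mix 2 under the replicate block, and leaving out each array gave 49 to 49 and 48 to 48. Between the mixes the block gave 11 higher and 16 lower genes, and leaving out each array gave 8 to 14 higher and 11 to 15 lower. Averaging all probe sets of a gene moved the median of the 49 with mix 1 to -1.24. Leaving out probe sets that can bind several transcripts kept 34 of the genes, moved the median with mix 2 to -1.52 and left 7 genes higher with mix 2 than mix 1. Directions that turned between the mixes were those of PNO1 (0.19 as a mean, 0.79 without shared probe sets), RRP15 (-0.59), WDR12 (-0.32) and NOLC1 (0.0725) as means, and of TBL3 without shared probe sets (-0.28). TBL3 with mix 1 also turned, to 0.12 (adjusted p = 0.374). These follow from other probe sets of the gene; which transcripts they read was not tested. RMA's options, 1 cell line and 4 arrays a group limit what can be said.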
